A study of Mus musculus with 4 samples.

Results

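Expression of 10 genes that encode secretory and surface proteins of the airway lining was examined in lung tissue with triple-negative breast cancer (TNBC) metastases. The genes were 3 secretoglobins (Scgb1a1, Scgb3a1 and Scgb3a2), 2 BPI fold proteins (Bpifa1 and Bpifb1), the lectin Reg3g, the gel-forming mucin Muc5b and 3 membrane mucins (Muc1, Muc4 and Muc16). They were found by symbol, and all 10 were among the 56748 genes counted. The genes were chosen with the counts of these 4 samples in view. The differences between the groups given here are therefore a description, and no test is read from them.

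Female BALB/cJ mice received 4T1-FLuc cells through the tail vein at an age of 7 weeks. 4T1 is a mouse TNBC line, and FLuc marks it with firefly luciferase. The control group (2 samples) received saline, called PBS in the labels. The ADC/cmLumiOpto group (2 samples) received CD276-DM1, in which mertansine, a drug against microtubules, is coupled to a CD276 antibody, together with cmLumiOpto, a gene therapy vector that depolarizes the mitochondria of cancer cells by light from a luminescent substrate. The labels give an antibody-drug conjugate dose of 16 mg/kg, name the treatment cmLumi-Olap and state 3 weeks of treatment, whereas the methods of the paper give a lower dose and do not mention Olap. The labels also speak of tumor cells harvested from the lung, whereas the methods describe dissociated lung tissue. The methods describe more samples per group than the 2 per group analyzed here, and the labels do not say which mouse each came from, so the spread between samples may be technical. For RNA sequencing the methods name only saline and ADC/cmLumiOpto samples, and no monotherapy sample was available here.

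The airway lining of the mouse lung is built largely of club cells, which secrete, and ciliated cells, which move the secreted film. Club cells release secretoglobins, small proteins found in the airway fluid, and BPI fold proteins, which bind lipids and bacterial products. Gel-forming mucins make the mucus itself, and membrane mucins cover the cell surface.

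Total counts lay between 15263375 and 19675436 per sample. Levels are given as CPM, which are counts scaled to the TMM-normalized library size. The floor of 3 counts equals 0.146 to 0.202 CPM depending on the sample. In bulk tissue, a smaller number of cells of a type and less RNA per cell cannot be told apart. Saline replicate 2 stood apart for genes of the lung epithelium. Its summed alveolar type 2 markers were at 536 CPM, against 1814 CPM in saline replicate 1 and 5929 and 5119 CPM in the ADC/cmLumiOpto samples.

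Sequences before the start sites of 4 of the genes are shown for the letters that their promoters hold. Promoters of 7 of the 10 genes were found in the RefSeq table of GRCm38.p6, and the 250 bases before the start are printed for the BPI fold genes, which lie near each other on chromosome 2, for Reg3g, which had the highest fold change of the 10, and for Scgb3a1, the secretoglobin with the closest replicates. Capitals mark matches to known site types, each searched on both strands, and no marked matches overlap. The TATA box was searched as TATAAA. The site of FOXA factors was searched as TGTTTAC, and its common variant, counted separately, as TATTTAC. The site of NKX2-1 was searched as CTCAAG, and that of STAT factors as TTCNNNGAA. The site of C/EBP factors was searched as TTNNGCAA.
Bpifa1, chr2:154142630-154142879, plus strand: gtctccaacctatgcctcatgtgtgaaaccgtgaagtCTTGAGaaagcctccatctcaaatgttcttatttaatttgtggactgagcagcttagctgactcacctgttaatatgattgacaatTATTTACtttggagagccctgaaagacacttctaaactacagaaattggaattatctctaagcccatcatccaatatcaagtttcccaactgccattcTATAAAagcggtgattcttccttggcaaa
Bpifb1, chr2:154200130-154200379, plus strand: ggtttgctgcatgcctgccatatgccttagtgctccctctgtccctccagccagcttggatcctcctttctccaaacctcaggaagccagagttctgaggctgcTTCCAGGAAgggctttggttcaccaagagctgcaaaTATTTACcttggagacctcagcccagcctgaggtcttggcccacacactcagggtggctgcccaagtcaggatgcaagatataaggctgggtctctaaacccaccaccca
Reg3g, chr6:78468875-78469124, minus strand: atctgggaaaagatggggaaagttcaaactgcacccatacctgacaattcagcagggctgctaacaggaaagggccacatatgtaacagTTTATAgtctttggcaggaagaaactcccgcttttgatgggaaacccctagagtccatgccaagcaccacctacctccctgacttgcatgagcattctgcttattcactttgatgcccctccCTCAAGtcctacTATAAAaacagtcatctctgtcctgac
Scgb3a1, chr11:49663345-49663594, plus strand: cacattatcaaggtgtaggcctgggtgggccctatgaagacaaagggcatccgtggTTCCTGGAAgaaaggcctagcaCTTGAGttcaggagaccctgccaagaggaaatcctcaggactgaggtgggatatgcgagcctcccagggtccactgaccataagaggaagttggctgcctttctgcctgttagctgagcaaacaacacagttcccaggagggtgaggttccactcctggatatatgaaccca

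TATTTAC began 127 bases before the start of Bpifa1 and 110 bases before this start of Bpifb1. Of 32851 promoters of the same length, 2.73% held TATTTAC. The other listed start of Bpifb1 lies upstream, with its promoter at chr2:154190568-154190817, and held no match to any of these letters. The TATTTAC shared with Bpifa1 therefore depends on which start of Bpifb1 is used. CTCAAG or its complement stood in the promoters of Bpifa1, Reg3g and Scgb3a1, at 213, 39 and 172 bases, and in 13.3% of all promoters. TATAAA began 29 bases before the start of Bpifa1 and 27 bases before that of Reg3g, with a further match at 161 bases in Reg3g. It also stood 31 bases before the start of Muc1 and 36 bases before that of Muc4, and 12.4% of all promoters held it. TTCNNNGAA was found at Bpifb1 and Scgb3a1, against 7.02% of all promoters. TGTTTAC, held by 3.17% of all promoters, and the C/EBP letters TTNNGCAA, held by 9.56%, were in none of the 7 members' promoters, and that of Muc16 held no match at all. These matches describe letters and do not show that a factor binds there.

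Each of the 10 genes was higher in both ADC/cmLumiOpto samples than in both saline samples. Among the 15320 genes that passed the expression filter, 28.1% were higher without overlap in this way and 57% lay apart in either direction, a background from which nothing is read here because the members were chosen on this contrast. All 10 passed the filter, but Bpifb1, Reg3g and Muc5b passed it only through the ADC/cmLumiOpto samples. For Bpifa1 and Muc4 only 1 saline sample was over its cutoff, so their passing also rests on the ADC/cmLumiOpto samples. The log2 fold changes ran from 0.45 for Muc16 to 4.58 for Reg3g. By the quasi-likelihood test of edgeR, adjusted after Benjamini and Hochberg, 0 of the 10 members and 0% of all tested genes had an adjusted p under 0.05. Without adjustment, 9 of the 10 and 11% of all tested genes were higher at that level, and 23.2% of all tested genes passed it in either direction. With the edgeR exact test, 6 of the 10 and 3.96% of all tested genes were called higher (7.64% in either direction), and with DESeq2 6 of the 10 and 4.28% (9.99% in either direction). Reg3g and Muc5b were among those called by both. Nothing is read from these test counts either, since the members were chosen on this contrast.

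**Figure D1:**
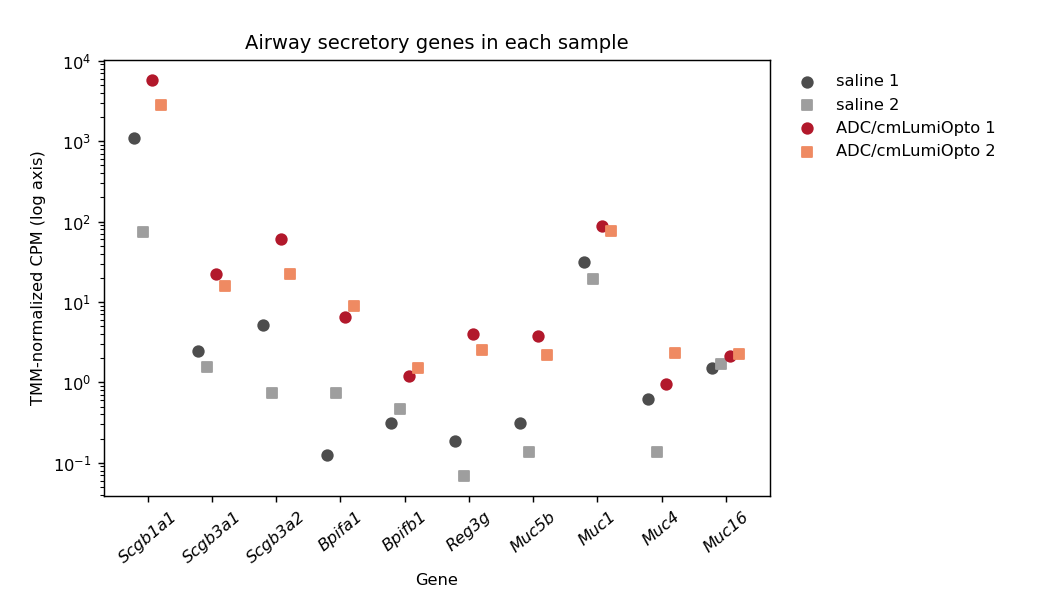
Points show TMM-normalized CPM on a log axis for each of the 10 genes in 2 saline samples (grey) and 2 ADC/cmLumiOpto samples (red and orange). For each gene both ADC/cmLumiOpto points lie above both saline points, and Scgb1a1 spans 73.9 to 5819 CPM.

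Scgb1a1 encodes the club cell secretory protein, also named uteroglobin or CC10, and is the defining transcript of club cells. It lies on chr19:9061000-9065322 (minus strand), as listed with the counts. The submitters' processing notes name build mm39, and the methods of the paper name GRCm38. The gene positions listed with the counts differ from the GRCm38 annotation, so they are not on the same coordinates as the promoters printed above. In saline replicates 1 and 2, Scgb1a1 was counted 17349 and 1096 times, and in ADC/cmLumiOpto replicates 1 and 2 it was counted 102681 and 57023 times. The saline samples differed 14.7-fold from each other in CPM, more than the mean difference of 7.42-fold between the groups. The lower ADC/cmLumiOpto sample was 2.56-fold above the higher saline sample. The group levels were 579 ± 715 CPM (SD, n = 2) in saline and 4300.0 ± 2149 CPM (SD, n = 2) after ADC/cmLumiOpto, a log2 fold change of 2.89 (standard error 1.09). Without saline replicate 1 the log2 fold change was 5.85, and without saline replicate 2 it was 1.99. By mean CPM per kilobase of gene model, Scgb1a1 was number 20 of the 56748 genes in saline and number 1 after ADC/cmLumiOpto. The saline mean rests mostly on replicate 1, at 2279 CPM per kilobase, against 155 in replicate 2.

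Scgb3a2 (ENSMUSG00000038791, chromosome 18), a second secretoglobin of club cells, followed the same order of samples as Scgb1a1. Its level was 5.19 and 0.741 CPM in saline, against 60.9 and 22.1 CPM with ADC/cmLumiOpto. The saline samples again lay far apart, saline replicate 2 being the lower, and the groups did not overlap. Its log2 fold change was 3.79 (standard error 0.83). It was 5.78 without saline replicate 1, 3.0 without saline replicate 2 and 2.89 without ADC/cmLumiOpto replicate 1. Scgb3a1 (chr11:49554437-49555945, plus strand), a secretoglobin of larger airways, was counted 39 and 23 times in saline, against 396 and 325 times with ADC/cmLumiOpto. Here the samples of a group lay close together, at 1.99 ± 0.628 CPM (SD, n = 2) in saline and 19.1 ± 4.66 CPM (SD, n = 2) after ADC/cmLumiOpto. The log2 fold change of Scgb3a1 was 3.25 (standard error 0.37), the estimate with the smallest standard error among the secretoglobins, with a range of 2.97 to 3.61 when single samples were omitted.

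Per kilobase, Scgb1a1 stood above the other 2 secretoglobins in each sample. Its ratio to Scgb3a2 in CPM per kilobase was 386 and 184 in saline and 177 and 233 with ADC/cmLumiOpto, so the groups overlapped. The ratio of Scgb1a1 to Scgb3a1 was 559 and 59.9 in saline and 326 and 220.4 with ADC/cmLumiOpto, and the lowest and the highest ratio were both in saline.

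Bpifa1 (chr2:153984800-153991139, plus strand) encodes SPLUNC1, a surfactant-like protein of the upper airway that binds bacterial products. It was counted 2 and 11 times in saline, against 116 and 180 times with ADC/cmLumiOpto. In contrast to Scgb1a1, saline replicate 2 was the higher saline sample, by 5.93-fold, although its 11 counts leave a wide counting error. The level was 0.433 ± 0.436 CPM (SD, n = 2) in saline and 7.68 ± 1.56 CPM (SD, n = 2) after ADC/cmLumiOpto, a log2 fold change of 4.15 (standard error 0.69), which was 5.87 without saline replicate 2 and 3.35 without saline replicate 1. Pooled over the samples of a group, the ratio was 18.4, with a 95% exact interval of 10.6 to 35.0 that covers counting error only. Bpifb1 (chr2:154032738-154062289, plus strand), the related long form LPLUNC1, had 5 and 7 counts in saline and 21 and 31 counts after ADC/cmLumiOpto. Its pooled ratio was 3.50 (95% exact interval 1.84 to 7.21, counting error only), and whether it differs from that of Bpifa1 was not tested. Per kilobase, the ratio of Bpifa1 to Bpifb1 was 0.936 and 3.68 in saline and 12.9 and 13.6 with ADC/cmLumiOpto.

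Reg3g (chr6:78443252-78445855, minus strand) encodes a secreted C-type lectin that acts on Gram-positive bacteria. It had 3 counts in saline replicate 1 and 1 count in saline replicate 2, at or under the floor, against 70 and 52 counts in the ADC/cmLumiOpto samples. The pooled ratio was 24.6 (95% exact interval 9.38 to 91.9, counting error only). The fitted log2 fold change of 4.58 (standard error 0.70) was the highest of the 10 and depends on the prior count at such low saline levels. It was 5.44 without saline replicate 1 and 4.07 without saline replicate 2. Muc5b (chr7:141392807-141426821, plus strand), the gel-forming mucin made in the airways of unchallenged mice, had 5 and 2 counts in saline and 67 and 45 counts after ADC/cmLumiOpto. Its pooled ratio was 12.9 (95% exact interval 6.07 to 32.9, counting error only), and its log2 fold change of 3.68 (standard error 0.68) became 4.39 without saline replicate 1 and 3.23 without saline replicate 2. For both genes all ADC/cmLumiOpto values lay above the saline values.

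Muc1 was the most abundant of the 4 member mucins per kilobase, at mean levels of 10.9 and 34.9 CPM per kilobase in saline and ADC/cmLumiOpto. Muc1 (chr3:89136364-89140688, plus strand), a membrane mucin of secretory epithelia and of many carcinomas, was at 31.7 and 19.5 CPM in saline and 87.9 and 75.8 CPM with ADC/cmLumiOpto. The groups were apart by 2.39-fold at their nearest samples, and the log2 fold change of 1.67 (standard error 0.26) had the smallest standard error of the 10. Muc4 (chr16:32555015-32602754, plus strand), a membrane mucin that can bind ERBB2, had 10 and 2 counts in saline and 17 and 47 counts after ADC/cmLumiOpto. For Muc4, ADC/cmLumiOpto replicate 1 was only 1.54-fold above saline replicate 1, and the log2 fold change of 2.07 (standard error 0.83) became 1.31 without ADC/cmLumiOpto replicate 2, 1.38 without saline replicate 2 and 3.52 without saline replicate 1. Muc16 (chr9:18406751-18585826, minus strand), the CA125 antigen and a partner of mesothelin, had 24 and 25 counts in saline and 37 and 46 counts after ADC/cmLumiOpto. Its log2 fold change was 0.45 (standard error 0.45), and its pooled ratio of 1.37 had a 95% exact interval of 0.95 to 1.99, which includes no difference on counting error alone.

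**Figure D2:**
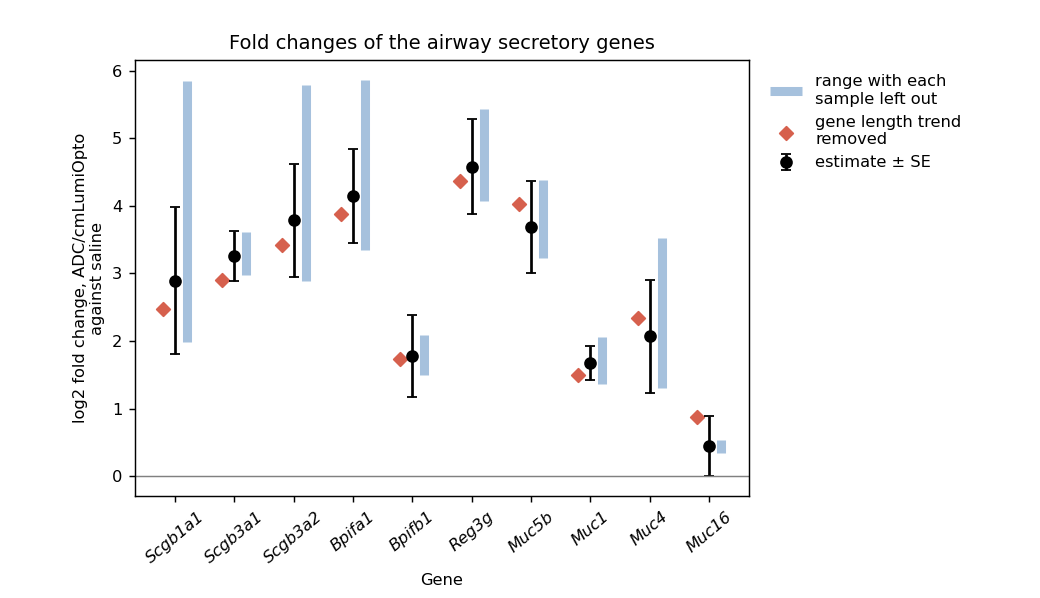
Black points show the log2 fold change of each gene with its standard error, blue bars the range with each sample left out in turn, and red diamonds the value after removal of the length trend. The estimates and both kinds of alternative lie above 0 for each gene, and the bars are longest for Scgb1a1, Scgb3a2 and Bpifa1. The bars could not reach below 0, because the groups did not overlap for any of these genes.

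Gene length moved with the fold change across the transcriptome, at a Spearman's rho of -0.34 over the 15320 tested genes, which are not independent replicates. The gene models of the secretoglobins were 476, 598 and 880 bases long, against a median of 4113 bases for tested genes, and those of Muc5b, Muc4 and Muc16 were 14964, 12754 and 26350 bases long. With the trend removed, the log2 fold changes of Scgb1a1, Scgb3a1 and Scgb3a2 were 2.48, 2.90 and 3.42. Those of the long mucins became higher, at 4.03 for Muc5b, 2.34 for Muc4 and 0.88 for Muc16.

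The genes whose profile over the 4 samples was most like that of Scgb1a1 were sought among 13511 tested protein-coding genes. Likeness was the root mean square difference between log2 CPM profiles, each centered on its own mean, over 4 samples. Cyp2f2, a cytochrome P450 of club cells, was nearest at 0.11, followed by the paraoxonase Pon1 at 0.24, the resistin-like Retnla at 0.31, the mucosal chemokine Cxcl17 at 0.39 and Pcp4l1 at 0.44. In saline replicate 2, Pon1 and Pcp4l1 had 0 counts and Cxcl17 had 2 counts, under the floor of 3 counts. The likeness of these genes to Scgb1a1 therefore depends on the prior count. Cyp2f2 had 884 and 66 counts in saline and 5431 and 2901 counts after ADC/cmLumiOpto. Per kilobase, the ratio of Scgb1a1 to Cyp2f2 was 83.5 and 70.6 in saline and 80.4 and 83.6 with ADC/cmLumiOpto. This ratio varied 1.18-fold over the samples, while Scgb1a1 itself varied 78.8-fold. Cyp2f2 was picked as the nearest profile, so the small variation of the ratio restates that choice. Among the members, Scgb3a2 was nearest to Scgb1a1 at 0.48, and Bpifa1 and Muc16 were farthest at 2.09 and 2.26.

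**Figure D3:**
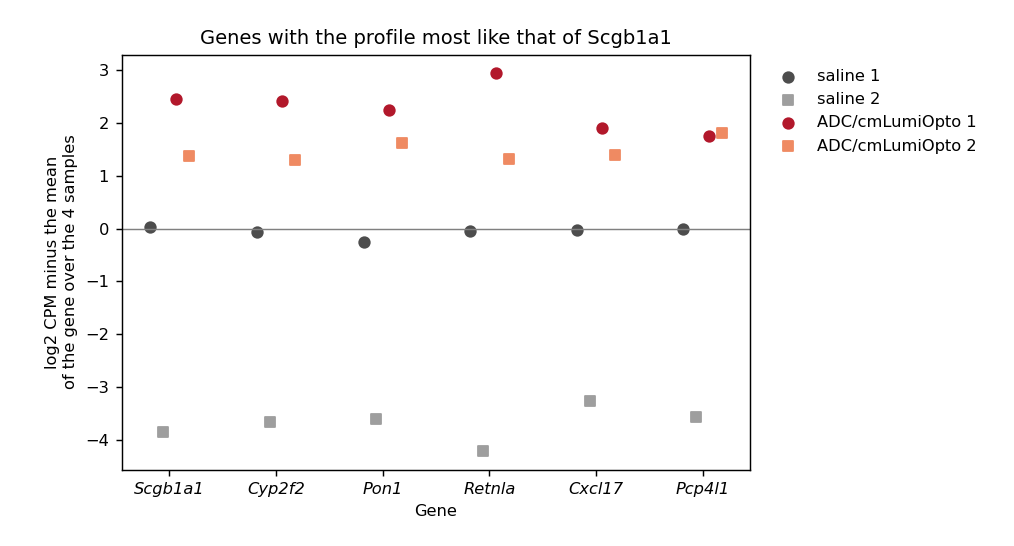
Points show log2 CPM of each gene minus its mean over the 4 samples, for Scgb1a1 and the 5 genes with the profile nearest to it. In each of the 6 genes saline replicate 2 lies lowest, and the points of Cyp2f2 lie within a root mean square difference of 0.11 from those of Scgb1a1.

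Markers of ciliated and alveolar cells of the lung were also higher in sum after ADC/cmLumiOpto. The 13 ciliated cell markers summed to 39.9 and 15.6 CPM in saline and 140 and 113 CPM after ADC/cmLumiOpto, a 4.56-fold difference of the means. Sec14l3 and Tppp3 made up the largest parts of this sum, at 65.1 and 41.6 CPM in ADC/cmLumiOpto replicate 1. Without overlap, 11 of 12 tested markers were higher, against 28.1% of all tested genes. Alveolar type 2 markers were 4.70-fold higher in sum (8 of 9 without overlap), and alveolar type 1 markers, at 369 and 150 CPM in saline and 957 and 899 CPM after ADC/cmLumiOpto, were 3.58-fold higher (7 of 8 without overlap). The ratio per kilobase of Scgb1a1 to Sftpc, the defining surfactant transcript of type 2 cells, was 2.32 and 0.921 in saline and 2.93 and 1.76 after ADC/cmLumiOpto, and the groups overlapped. Sftpc alone made up 1017 and 174 CPM of the type 2 sum in saline and 4321 and 3426 CPM after ADC/cmLumiOpto. The ratio of Scgb3a1 to the ciliated cell gene Tppp3 was 1.28 and 1.20 in saline and 1.67 and 2.01 after ADC/cmLumiOpto. That of Scgb1a1 to Tppp3 was 717 and 72.1 in saline and 543 and 444 after ADC/cmLumiOpto, and these groups overlapped. The part of these cell types in the difference of the secretory genes was not tested.

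The 4T1 tumor epithelial markers summed to 2948 and 3355 CPM in saline and 2828 and 2753 CPM after ADC/cmLumiOpto. The ratio of the means was 0.885. Of the 8 genes, Epcam, Krt7 and Cldn7 were higher by fold change and the other 5, among them Krt8, Krt18 and Cd276, lower. The part of tumor cells in this sum was not tested. Fibroblast markers were lower in both ADC/cmLumiOpto samples, at 1767 and 1459 CPM against 5151 and 3544 CPM. Endothelial markers were at 525 and 374 CPM in saline and 630 and 990.2 CPM after ADC/cmLumiOpto, with 7 of 8 higher without overlap. Leukocyte markers were at 943 and 497 CPM in saline and 926 and 3655 CPM after ADC/cmLumiOpto. Of the leukocyte sum, the neutrophil gene S100a8 alone made up 454, 170, 422 and 3089 CPM in the same order of samples. Alveolar, airway, stromal and leukocyte markers were all present beside them, although the labels name tumor cells. Basal cell markers were at 65.4 and 56.3 CPM in saline and 48.5 and 36.6 CPM after ADC/cmLumiOpto. Krt14 alone made up 53.9 and 43.5 CPM of this sum in saline and 37.8 and 25.7 CPM after ADC/cmLumiOpto. The defining marker Krt5 had 5 counts in saline replicate 1 and 0 counts in the other 3 samples. Neuroendocrine markers summed to between 3.68 and 8.29 CPM and overlapped. Of 9 submucosal gland and upper airway markers, 6 had no count in any sample, and nearly all of the rest was Ltf, which neutrophils also make.

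**Figure D4:**
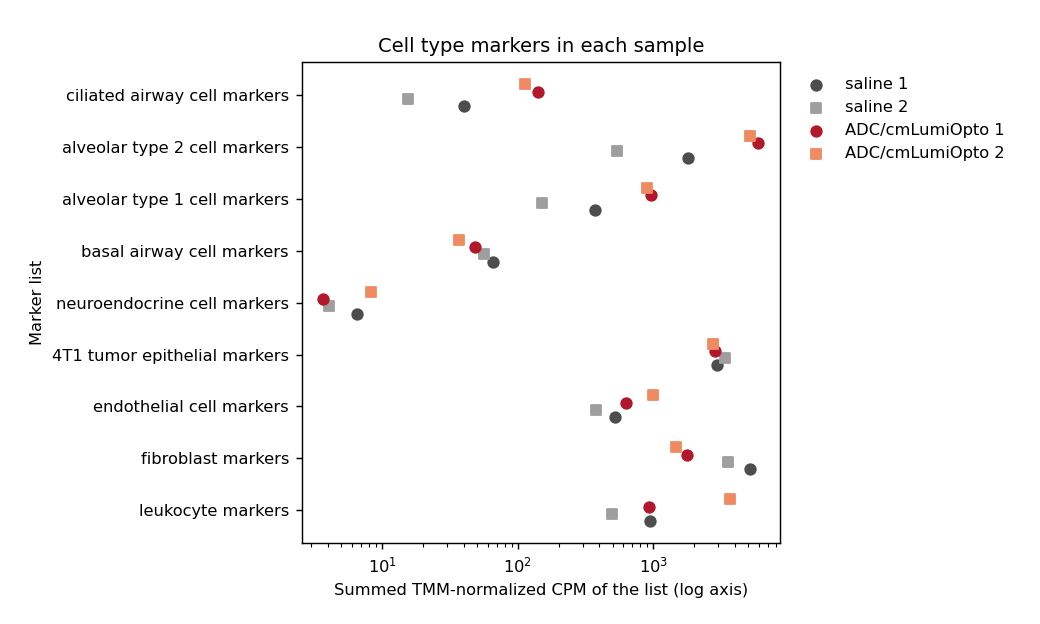
Points show the summed CPM, on a log axis, of 9 lists of cell type markers in 2 saline and 2 ADC/cmLumiOpto samples. The ciliated, alveolar type 2, alveolar type 1 and endothelial lists lie higher in both ADC/cmLumiOpto samples, and the 4T1 tumor epithelial list spans 2753 to 3355 CPM.

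Related genes were examined in 6 lists that did not contain the members, with 99 of 126 genes tested. The lists were chosen with earlier results of these data known, so the counts given for them are a description. Counts are set beside the median log2 fold change of 0.028 over all tested genes, of which 28.1% were higher and 28.8% lower without overlap. By the same adjusted quasi-likelihood test of edgeR, 0 of the 99 passed an adjusted p of 0.05. At an unadjusted p under that level, 46 were higher and 9 lower, against 11% higher and 12.2% lower of all tested genes. The edgeR exact test called 28 higher and 0 lower, against 3.96% of all tested genes called higher, and DESeq2 called 23 higher and 3 lower, against 4.28% called higher. Over all genes, the exact test called 564 of 15320 lower, and DESeq2 called 774 of 13537 lower.

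Other genes of club and airway secretory cells had a median log2 fold change of 2.17, with 23 of 26 tested genes higher and 1 lower without overlap. The genes with the smallest p were Gsta3, Lypd2 and Hp. Gsta3, a glutathione transferase, had 105 and 109 counts in saline and 394 and 447 counts after ADC/cmLumiOpto, a log2 fold change of 1.66 (standard error 0.24). Lypd2 had 1 count in each saline sample and 63 and 26 counts after ADC/cmLumiOpto, a pooled ratio of 36.0 (95% exact interval 9.67 to 302, counting error only). Hp, the hemoglobin-binding haptoglobin, was at 88.0 ± 49.6 CPM (SD, n = 2) in saline and 398 ± 117 CPM (SD, n = 2) after ADC/cmLumiOpto. Krt15 was the gene of the list that lay lower without overlap, at a log2 fold change of -1.30.

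Secreted defence proteins of the airway had a median of 2.09, and 11 of 13 tested genes were higher without overlap. Slpi, a protease inhibitor of mucosal fluid, was at 145 ± 20.1 CPM (SD, n = 2) in saline and 286 ± 6.16 CPM (SD, n = 2) after ADC/cmLumiOpto. For Sftpd, a collectin made by type 2 and club cells, the log2 fold change was 2.40 (standard error 0.44). Camp, the cathelicidin of neutrophil granules, had 243 and 101 counts in saline and 513 and 1875 counts after ADC/cmLumiOpto. The neutrophil marker S100a8 stood at 7262, 2526, 7452 and 63353 counts in the same order of samples, so Camp was highest in the sample with the most S100a8. The part of neutrophils in these values was not tested.

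Goblet cell and mucus granule genes had few counts, and 3 of 18 passed the filter. Muc5ac, the other gel-forming airway mucin, had at most 8 counts in any sample, and Agr2, needed to fold mucins, at most 4. Among the tested genes, Fcgbp, a mucus-associated protein, had 23 and 6 counts in saline and 161 and 356 counts after ADC/cmLumiOpto, a log2 fold change of 3.82 (standard error 0.63). Creb3l1 lay lower in both ADC/cmLumiOpto samples, at a log2 fold change of -1.12 (standard error 0.34), and Galnt12 was at 8.23 ± 0.480 CPM (SD, n = 2) and 8.97 ± 0.618 CPM (SD, n = 2).

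Transcription factors and Notch components that regulate airway secretory genes had a median of 0.28, with 10 of 21 tested genes higher and 5 lower without overlap (28.1% and 28.8% of all tested genes). Nkx2-1, the master regulator of lung epithelium, had 111 and 29 counts in saline and 282 and 478 counts after ADC/cmLumiOpto, and its groups did not overlap (log2 fold change 2.14, standard error 0.56). The log2 fold change was 1.42 (standard error 0.31) for Cebpd and 1.68 (standard error 0.42) for the Notch target Hey1. Genes of interleukin-17, interleukin-22, interleukin-13 and STAT3 signaling, which induce Reg3g and mucins in mucosal tissue, had a median of -0.13, with 4 of 18 tested genes higher and 8 lower without overlap. Il17a and Il22 had 1 and 0 counts in all samples together. For Il1b the log2 fold change was 1.10 (standard error 0.29), for Il10rb 0.79 and for the interleukin-22 receptor gene Il22ra1 -1.40 (standard error 0.53). Enzymes of mucin O-glycosylation and partners of membrane mucins had a median of 0.028, with 6 of 20 higher and 3 lower without overlap, the share of higher genes being near the 28.1% of all tested genes. C1galt1, which makes the core 1 glycan, was at 133 ± 0.832 CPM (SD, n = 2) in saline and 89.8 ± 10.9 CPM (SD, n = 2) after ADC/cmLumiOpto, whereas the log2 fold change of its chaperone C1galt1c1 was 0.93 (standard error 0.25). For St6galnac2, a sialyltransferase, the log2 fold change was 1.03 (standard error 0.33). The adjusted p values of the 18 genes with the smallest p in the 6 lists lay between 0.116 and 0.815 in edgeR's quasi-likelihood test.

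**Figure D5:**
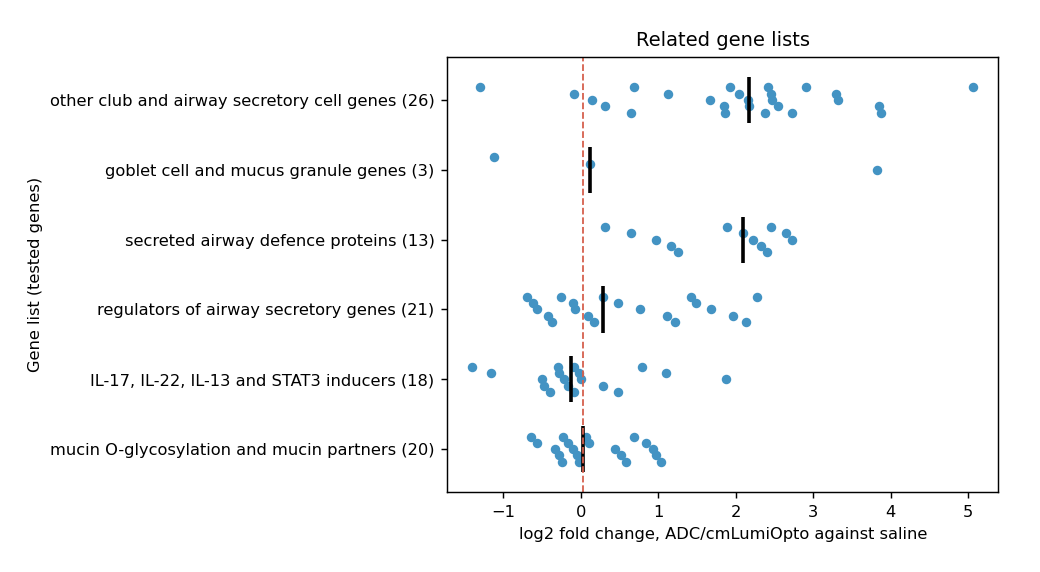
Each point is the log2 fold change of a tested gene in 6 lists of related genes, the black bars mark the median of each list and the dashed line the median of all tested genes, 0.028. The medians of the club cell and defence lists lie at 2.17 and 2.09, and those of the other 4 lists between -0.13 and 0.28.

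Relatives of the members by family were few. Of 31 other secretoglobin genes, 30 had no count in any sample, and Scgb1c1 had 3 and 1 counts in saline and 37 and 20 counts after ADC/cmLumiOpto, a pooled ratio of 11.5 (95% exact interval 4.26 to 43.7, counting error only). Of 12 other BPIF genes, 9 had no count, and Bpifb5 had 4 and 0 counts in saline and 18 and 23 counts after ADC/cmLumiOpto. Bpifb4 went another way, at 13 and 207 counts in saline and 133 and 76 counts after ADC/cmLumiOpto, and its groups overlapped. Among 10 other mucin genes, Muc20 had 5 and 3 counts against 19 and 21, and Muc13 had 19 and 3 counts against 60 and 5. None of the 6 other REG genes, Reg3b among them, had a count.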

How the data were processed

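Bulk messenger RNA from 2 saline and 2 ADC/cmLumiOpto samples was sequenced on an Illumina system. The authors aligned reads with HISAT2 and deposited raw counts of reads per gene for 56748 genes, without normalization. The counting program and the library's strand setting are not given in the sources used here, so reads of overlapping antisense genes cannot be told apart. The fit across all genes used edgeR 4.0.16 (R 4.3.3) after filterByExpr (minimum count 10, minimum total 15), TMM normalization, glmQLFit and glmQLFTest, with Benjamini-Hochberg adjustment over 15320 genes and a threshold of 0.05. The prior count was 0.125 for fold changes and 2 for profiles. The standard error is the fold change divided by the square root of F. Exact intervals of pooled ratios are Clopper-Pearson at 95%. An exact permutation test of 2 against 2 samples cannot give a two-sided p under 0.333 and was not used.

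The members and lists were chosen with earlier results of these data known. Genes named beside the members were the 3 tested genes of each related list with the smallest p, the 2 genes of each family with the most counts, and the 5 genes nearest to Scgb1a1. Scgb2b2 and Reg4 had 0 counts. Krt5, Krt14, Ltf, Krt15, Muc5ac, Agr2, Il17a, Il22, S100a8, Sftpc, Tppp3, Sec14l3, Epcam and Krt7 were named after their values had been seen. Alternatives were DESeq2 1.42.0, library size, upper quartile, the edgeR exact test, other filters, a block for the replicate number, removal of the length trend (lowess span 0.3) and each sample left out in turn. The procedure was tested on simulated data.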

Additional observations from a re-analysis of the deposited data

How the results depend on the processing

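The 10 members lay higher without overlap also under DESeq2 size factors, library size, upper quartile and the length trend removed, which is a description, since they were chosen on this contrast. Of the members' fold changes under alternatives, 103 lay within the spread between replicates, 12 moved further and 0 changed sign. Since the groups did not overlap for any member, leaving out a sample could not change a sign. The spread allowed was widest where replicates lay far apart, at 2.01 in log2 for Scgb1a1. The fold changes that moved did so with a saline sample left out, except Muc16 with the length trend removed. The count of all genes with an adjusted p under 0.05, 0 in edgeR's quasi-likelihood test, was 1353 with DESeq2, 1170 with the edgeR exact test and 2259 of 25563 without the filter, and the count of listed genes was 26, 28 and 45. With each sample left out it ranged from 0 to 218 for all genes and 0 to 22 for listed genes, and was highest without saline replicate 1, the lone saline sample then being assumed to vary like the others. The labels give the groups the same sample numbers but no shared batch or litter. Deviations of same-numbered samples correlated at 0.099 over genes. With the replicate block, 607 of all genes and 27 listed genes were called. The cause of these differences was not tested. At 1 to 11 saline counts, the fold changes of Bpifa1, Bpifb1, Reg3g, Muc5b and Muc4 are limited by depth, and with at least 10 counts required in every sample these genes give no value. Library size, upper quartile, that filter and the length trend removed left 0 genes called.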

Other observations

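Claudin 7 (Cldn7), an epithelial tight junction gene placed among the 4T1 tumor epithelial markers, did not follow the other genes of that list. It was counted 55 and 39 times in saline, against 259 and 205 times with ADC/cmLumiOpto. Its log2 fold change was 2.02, whereas the other 7 genes had log2 fold changes between -0.63 and 0.18. Among the ciliated cell markers, the dynein light chain gene Dynlrb2 had the highest log2 fold change, 4.06, from 3 counts in each saline sample to 83 and 42 counts. Mcidas, a regulator of multiciliated cell formation, had 2 and 5 counts in saline and 2 in each ADC/cmLumiOpto sample. Among the alveolar type 2 markers, the lipid transporter gene Abca3 had a log2 fold change of -0.23, whereas the other 8 genes were between 0.62 and 2.70. These genes were chosen after their values had been seen.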
